A study of Mus musculus with 8 samples.

Results

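Naive pluripotency is the state of mouse embryonic stem cells that resembles the epiblast before implantation. It is held by a small network of transcription factors, and 9 of their genes are described here: Nanog, Esrrb, Tfcp2l1, Tbx3, Prdm14, Nr0b1, Nr5a2, Zfp42 and Gbx2. They were taken by name from 22963 genes with a summed RefSeq value, and the choice was made with earlier results of these data known. All 9 were among the 10278 genes that were tested, although Prdm14 passed the filter on low values through its 2i libraries and Nr5a2 through its Std libraries. RNA came from Bruce 4, a male C57BL/6J wild-type line of embryonic stem cells, held for 2 weeks on gelatin or on laminin-511 (LN511, written LM511 in the sample titles) and in Std medium or in 2i medium. The 4 groups were gelatin Std, LN511 Std, gelatin 2i and LN511 2i, each with 2 libraries that the design text calls biological replicates. All groups come from 1 cell line, and neither the makeup of Std medium nor that of 2i is stated in the labels.

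The factors act at different places in the network. LIF signals through STAT3 and supports Tfcp2l1 and the Klf genes. In its usual form, 2i holds a GSK3 inhibitor and a MEK inhibitor. The GSK3 inhibitor stabilises beta-catenin, which relieves repression by TCF7L1 (once called Tcf3) of genes such as Nanog, Esrrb and Tfcp2l1. The MEK inhibitor blocks FGF and ERK signalling, which otherwise moves cells toward the formative and primed states. NANOG is a homeodomain protein, ESRRB and NR5A2 are orphan nuclear receptors, and NR0B1 (DAX1) is an atypical nuclear receptor that lacks the usual DNA-binding domain and mostly acts as a corepressor. TFCP2L1 belongs to the grainyhead-like family, TBX3 is a T-box factor, PRDM14 and ZFP42 (REX1) are zinc finger proteins, and GBX2 is a homeodomain protein known as a STAT3 target.

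Promoter windows from RefSeq (build GRCm38.p6, 250 bases before to 50 bases after a gene's start) were found for 7 of the 9 genes, 10 windows in all. Those of Nanog, Zfp42 and Nr0b1 are shown as examples of windows that hold octamer, SOX or TCF sequences. Those of Tfcp2l1 and Gbx2 are shown because these genes had the largest rise on gelatin and the fall. Capitals mark the octamer core TTTGCAT (the longer octamer ATGCAAAT overlaps it), the SOX sequences ACAAAG and ACAATG, and the TCF sequence CTTTGA, searched on both strands. The windows are Nanog at chr6:122707315-122707614 (plus strand), Zfp42 at chr8:43306960-43307259 (minus strand), Nr0b1 at chrX:86191525-86191824 (plus strand), Tfcp2l1 at chr1:118627695-118627994 (plus strand) and Gbx2 at chr1:89931127-89931426 (minus strand), each printed along its gene.
Nanog: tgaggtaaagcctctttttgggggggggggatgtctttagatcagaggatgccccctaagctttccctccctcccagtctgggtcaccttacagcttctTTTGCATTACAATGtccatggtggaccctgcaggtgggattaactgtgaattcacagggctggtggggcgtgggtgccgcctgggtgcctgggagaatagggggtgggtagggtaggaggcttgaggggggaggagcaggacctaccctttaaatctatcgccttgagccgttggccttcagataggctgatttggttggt
Zfp42: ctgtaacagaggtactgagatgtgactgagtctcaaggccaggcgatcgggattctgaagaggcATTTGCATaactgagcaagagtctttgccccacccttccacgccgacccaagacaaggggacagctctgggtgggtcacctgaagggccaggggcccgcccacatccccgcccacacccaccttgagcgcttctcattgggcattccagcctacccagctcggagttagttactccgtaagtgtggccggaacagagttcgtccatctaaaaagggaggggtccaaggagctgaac
Nr0b1: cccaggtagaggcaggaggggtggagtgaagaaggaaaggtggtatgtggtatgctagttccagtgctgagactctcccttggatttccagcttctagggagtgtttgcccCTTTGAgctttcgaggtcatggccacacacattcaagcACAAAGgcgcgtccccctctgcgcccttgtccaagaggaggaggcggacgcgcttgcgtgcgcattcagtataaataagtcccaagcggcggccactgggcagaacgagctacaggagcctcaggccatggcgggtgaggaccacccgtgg
Tfcp2l1: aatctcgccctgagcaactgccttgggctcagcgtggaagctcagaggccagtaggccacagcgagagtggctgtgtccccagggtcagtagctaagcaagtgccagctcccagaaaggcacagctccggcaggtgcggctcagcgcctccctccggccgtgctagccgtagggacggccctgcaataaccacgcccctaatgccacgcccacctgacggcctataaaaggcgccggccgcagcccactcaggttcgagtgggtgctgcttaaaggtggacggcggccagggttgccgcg
Gbx2: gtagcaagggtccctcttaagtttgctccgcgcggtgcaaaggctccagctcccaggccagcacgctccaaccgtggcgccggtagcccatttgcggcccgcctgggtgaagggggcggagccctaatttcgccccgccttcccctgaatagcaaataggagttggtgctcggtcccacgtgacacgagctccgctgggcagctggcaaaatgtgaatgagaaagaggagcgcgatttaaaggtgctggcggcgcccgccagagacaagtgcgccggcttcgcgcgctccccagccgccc

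The Nanog window holds TTTGCATTACAA from -151 to -140, an octamer core followed after 1 base by ACAA, which is the layout of the composite element bound by OCT4 with SOX2. That layout was in 12 of 32851 RefSeq windows (0.0365%), of which 2 are overlapping windows of Nanog. Zfp42 has the octamer from -186 to -179 without the SOX part, and the octamer ATGCAAAT was in 1.74% of all windows and its core TTTGCAT in 4.63%. Nr0b1 has CTTTGA from -139 to -134 and ACAAAG from -101 to -96, found in 16.0% and 18.7% of all windows. The other SOX sequence, ACAATG, was in 12.6% of windows and overlaps the composite of Nanog. ACAATG was also in 1 window of Esrrb (33 to 38) and ACAAAG in that of Nr5a2 (-175 to -170), which are not printed. In the Tfcp2l1 and Gbx2 windows, the single match to any sequence searched was to the KLF sequence CACCC, which was in 57.5% of all windows and in 9 of the 10 shown or searched for these genes. The estrogen-related receptor sequence AAGGTCA was in none of the 10 and in 4.72% of all windows. The STAT sequence TTCNNNGAA was in 1 window, of Esrrb, and in 8.30% of all. The TFCP2L1 pair (CCAG, any 5 bases, CCAG) was in 1 window, of Zfp42, and in 3.54% of all. Each match describes these letters in this window and is not a measured binding site.

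On GRCm38.p6 the genes lie at chr6:122707489-122714633 (Nanog), chr12:86361117-86521628 (Esrrb), chr1:118627923-118685168 (Tfcp2l1), chr5:119670534-119684724 (Tbx3), chr1:13113428-13127163 (Prdm14), chrX:86191775-86195947 (Nr0b1), chr1:136842562-136960448 (Nr5a2), chr8:43295067-43307009 (Zfp42) and chr1:89927962-89931176 (Gbx2). Esrrb overlaps Gm40483, Tfcp2l1 overlaps LOC115487679 and Tbx3 overlaps Tbx3os1. The strand setting of the counting is unknown here, so reads of such pairs may not be told apart. Nanog and Zfp42 also have annotated pseudogenes (Nanog-ps1, Nanog-ps2 and Zfp42-ps1), with which reads could be shared.

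Levels are FPKM, fragments scaled by transcript length and library depth, so they can be set side by side between genes. A FPKM of 0 in these files can be a failed estimate. Steps between low values put each library at roughly 2210960 to 4066240 fragments (interquartile range over transcripts), so values near 1 FPKM rest on few fragments. Replicate libraries correlated at 0.959 to 0.964 across genes, and libraries of different groups at 0.907 to 0.955. Stem cell markers (Pou5f1, Sox2, Sall4, Lin28a, Dppa4 and Utf1) summed to 1454 to 1999 FPKM in every library. The 8 primitive endoderm markers summed to 0.87 to 4.54 FPKM, the 7 fibroblast markers to 0.13 to 1.47 (lower in 2i) and the 6 mesendoderm markers to 0 to 1.30 in Std and 3.61 to 5.74 in 2i. The 6 neuroectoderm markers summed to 5.64 to 23.4 FPKM and were lower in the 2i libraries, most of it Nes except in gelatin 2i, where Sox1 was the larger (3.22 and 3.25 FPKM against 2.80 and 2.39 of Nes). The 8 trophoblast markers summed to 14.8 to 31.9 FPKM, most of it Tfap2c and Ascl2, and were highest in gelatin 2i. Their part in the results below was not tested. In bulk RNA, fewer cells of a kind and less RNA per cell cannot be told apart.

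Nanog was the most abundant of the 9 transcripts in 3 of the 4 groups. It stood at 56.7 and 53.1 FPKM for gelatin Std, 48.4 and 43.2 for LN511 Std, 446 and 455 for gelatin 2i, and 550 and 614 for LN511 2i. Every 2i library was far above every Std library, and the replicates lay close together. By group mean, Nanog ranked 1277 of 10278 tested genes in gelatin Std and 146 for gelatin 2i, and 1609 and 126 on LN511. The ratio of group means was 8.21 on gelatin and 12.7 on LN511. On the log2(FPKM + 1) scale used for all tests, which understates the change of low genes, the rise was 3.02 (SE 0.09) on gelatin and 3.64 (SE 0.09) on LN511 (limma adjusted p = 2.57e-05 and 1.45e-05). In 7 libraries all of this level was assigned to the transcript NM_028016. In LN511 Std replicate 1 a second transcript, NM_001289828, was at 7.44 FPKM.

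**Figure D1:**
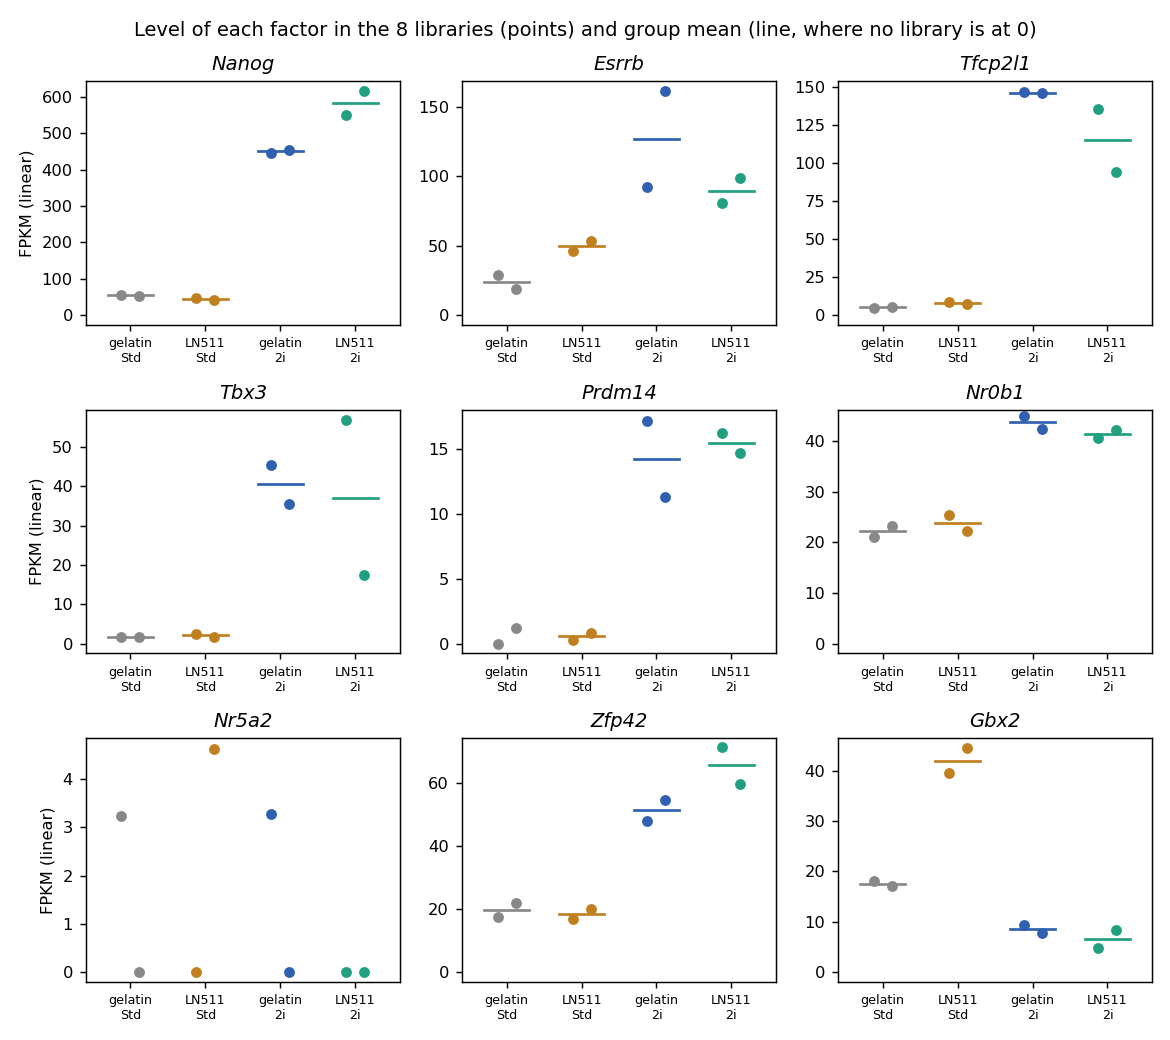
FPKM (linear axes, each gene with its own range) of the 9 factors in gelatin Std, LN511 Std, gelatin 2i and LN511 2i; points are single libraries and lines are group means, drawn where neither library is at 0. In 7 genes all 2i points lie above all Std points, Gbx2 has the opposite order, and Nr5a2 is at 0 in 5 libraries.

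Across both coatings, 7 of the 9 genes had every 2i library above every Std library, which was so for 13.2% of all tested genes. Gbx2 had every 2i library below every Std library, as did 14.5% of all tested genes. Nr5a2 overlapped. By limma, 7 of 9 rose on gelatin, where 8.20% of tested genes were called higher, and 1 fell, where 7.20% were called lower. On LN511, 6 rose against a background of 8.58% and 1 fell against 9.95%. Prdm14 is counted among the genes that rose, although it passed the filter on low values only through its 2i libraries, which favours a rise. The median log2 difference of the 9 was 2.33 on gelatin and 1.76 on LN511, beside 0.00 and -0.04 over all tested genes.

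Tfcp2l1 was low in Std medium, at 4.96 and 5.72 FPKM for gelatin Std and 8.69 and 7.28 for LN511 Std. In 2i it reached 147 and 146 FPKM on gelatin and 135 and 94.4 on LN511. It was thus near the middle of the tested genes in Std (rank 5939 on gelatin and 5192 on LN511) and among the upper ones in 2i (rank 490 and 646). Its log2 rise of 4.54 (SE 0.19) on gelatin was the 7th highest of all 10278 tested genes, and its rise of 3.67 (SE 0.19) on LN511 the 8th highest (limma adjusted p = 6.74e-05 and 0.000139). The ratio of group means was 27.3 on gelatin and 14.4 on LN511.

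Prdm14, a factor that represses de novo DNA methyltransferase genes, was close to the limit of detection in Std medium. It was listed at 0 and 1.21 FPKM for gelatin Std and at 0.29 and 0.87 for LN511 Std, against 17.2 and 11.3 for gelatin 2i and 16.3 and 14.7 for LN511 2i. All 4 Std libraries were at or below 1.21 FPKM and all 4 2i libraries at or above 11.3. The log2 rise was 3.33 (SE 0.44) on gelatin and 3.40 (SE 0.44) on LN511 (limma adjusted p = 0.00458 and 0.00336). Prdm14 was tested only because its 2i libraries passed the filter on low values, so these p-values are descriptions. Even in 2i its rank was 3864 on gelatin and 3641 on LN511, well below that of Nanog.

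Tbx3 stood at 1.84 and 1.64 FPKM for gelatin Std and 2.51 and 1.84 for LN511 Std. It was at 45.4 and 35.6 for gelatin 2i and at 56.7 and 17.4 for LN511 2i. Every 2i library was above every Std library, but LN511 2i replicate 2 lay well below the other 3 in 2i. The log2 rise was 3.91 (SE 0.49) on gelatin and 3.37 (SE 0.49) on LN511 (limma adjusted p = 0.00407 and 0.00609). With the 4 LN511 libraries fitted alone, the second missed the threshold (limma adjusted p = 0.0524).

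Tbx3 has 2 RefSeq transcripts that differ by a coding exon of 60 bases (20 codons), known to lie within the region that encodes the T-box, and by their 5′ ends. In NM_011535 it is exon 3, at chr5:119675243-119675302 on the plus strand (GRCm38), and NM_198052 lacks it. It is shown in capitals, with 15 bases of the neighbouring exons on each side, because it is the coding difference between the transcripts.
Tbx3 exon: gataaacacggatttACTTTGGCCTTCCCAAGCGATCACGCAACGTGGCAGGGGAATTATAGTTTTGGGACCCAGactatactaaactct
The transcript with the exon was at 27.7 and 28.6 FPKM for gelatin 2i and 36.4 and 17.4 for LN511 2i. The transcript without it was at 17.7 and 6.98 for gelatin 2i and 20.4 and 0 for LN511 2i. In the 2i libraries the form with the exon therefore took 61.0%, 80.4%, 64.1% and 100% of the gene's sum. The LN511 2i replicates differed in both forms, but the 0 for the form without the exon can be a failed estimate. The share of 100% and the gene's sum in LN511 2i replicate 2 rest on that 0. In Std medium the split ran from 0% to 100% at totals under 3 FPKM and gives no usable proportion. These are estimates that share reads between forms, and no test was made on them.

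**Figure D2:**
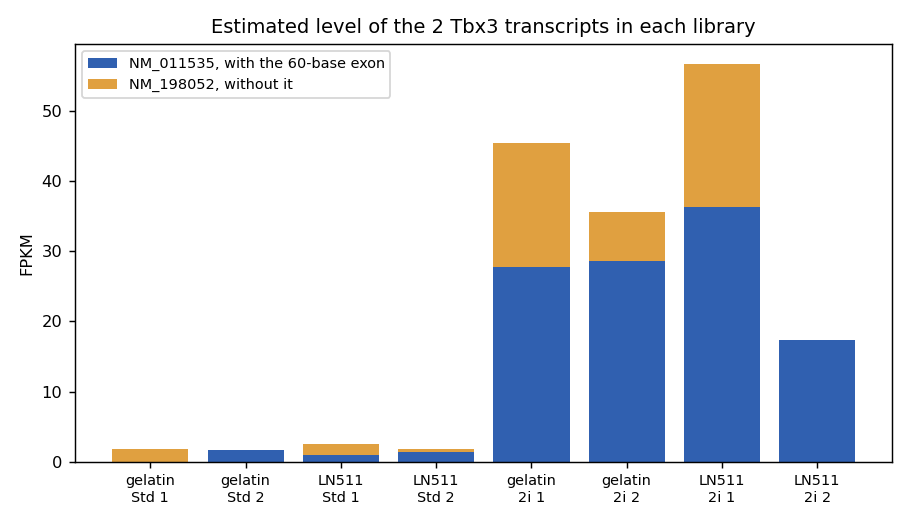
Stacked bars of FPKM for the 2 RefSeq transcripts of Tbx3 in each of the 8 libraries; blue, with the 60-base exon, and orange, without it. The blue part is the larger in all 4 2i libraries, and in LN511 2i replicate 2 the orange part is listed at 0.

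Zfp42, the gene of the widely used naive marker REX1, was at 17.4 and 22.0 FPKM for gelatin Std and 17.0 and 20.2 for LN511 Std. It was at 48.0 and 54.6 for gelatin 2i and 71.5 and 59.5 for LN511 2i. The groups in 2i were above those in Std without overlap, at 2.61 times on gelatin and 3.53 times on LN511. The log2 rise was 1.34 (SE 0.17) and 1.76 (SE 0.17; limma adjusted p = 0.00405 and 0.00115). Nr0b1, on chromosome X and so present in 1 copy in this male line, moved least of the genes that rose. It was at 21.1 and 23.2 FPKM for gelatin Std, 25.4 and 22.2 for LN511 Std, 45.0 and 42.3 for gelatin 2i and 40.6 and 42.1 for LN511 2i. Its 4 Std values span 21.1 to 25.4 and its 4 2i values 40.6 to 45.0, a ratio of means of 1.97 on gelatin and 1.74 on LN511 (log2 0.95 and 0.78, both SE 0.12; limma adjusted p = 0.00414 and 0.00731).

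Esrrb, whose product can stand in for NANOG in several settings, stood higher in Std medium on LN511 than on gelatin. That difference was not called (log2 1.06, SE 0.30, limma adjusted p = 0.154). Esrrb was at 28.9 and 18.9 FPKM for gelatin Std and at 46.5 and 53.8 for LN511 Std, where its mean was the highest of the 9. In 2i it was at 92.1 and 161 on gelatin and 80.6 and 98.9 on LN511. All 2i values exceeded all Std values, yet the log2 difference was 2.33 (SE 0.30) on gelatin (limma adjusted p = 0.00425) and 0.82 (SE 0.30, 95% interval 0.11 to 1.53) on LN511, which did not pass (limma adjusted p = 0.107). The interaction of coating and medium was -1.51 (SE 0.42) and did not pass either (limma adjusted p = 0.244). Its other RefSeq transcript, NM_001159500, was above 0 only in LN511 Std replicate 1, at 7.10 FPKM. That is the same library in which the second Nanog transcript was above 0.

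Gbx2 was the one member that was lower in 2i. It was at 18.1 and 17.1 FPKM for gelatin Std, 39.5 and 44.5 for LN511 Std, 9.35 and 7.87 for gelatin 2i and 4.78 and 8.39 for LN511 2i. The LN511 Std libraries stood apart from all others, and the 2i groups overlapped each other. The log2 fall on LN511 was -2.54 (SE 0.25; limma adjusted p = 0.00119), among the 74 lowest of all tested genes. On gelatin it was -0.96 (SE 0.25; limma adjusted p = 0.0451). That call is marginal: it was lost without either gelatin Std library, either gelatin 2i library or either LN511 Std library (limma adjusted p = 0.0802 to 0.178), and with a pseudocount of 0.1, no filter, doubtful zeros kept or a replicate block (0.0578 to 0.0657).

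Nr5a2, which can replace Oct4 in reprogramming and is bound at many naive enhancers, could not be measured well. It was listed at 3.23 and 0 FPKM for gelatin Std, 0 and 4.61 for LN511 Std, 3.27 and 0 for gelatin 2i and 0 and 0 for LN511 2i. Of its transcripts, NM_001159769 carried all of this and NM_030676 was at 0 throughout. The 95% intervals of the log2 difference in 2i, -2.56 to 2.57 on gelatin and -3.81 to 1.32 on LN511, cover both large rises and large falls.

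**Figure D3:**
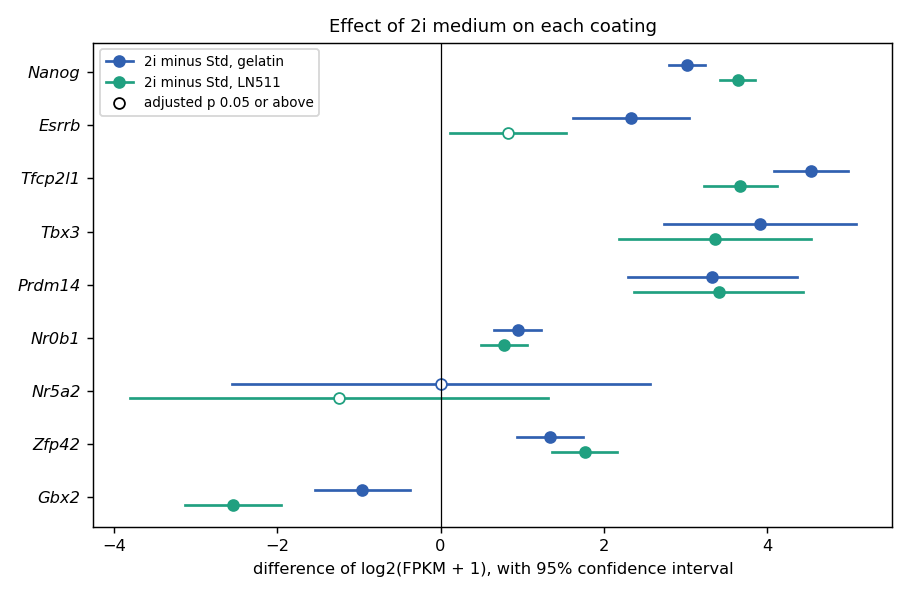
Difference of log2(FPKM + 1) between 2i and Std medium for each factor, with limma 95% confidence intervals; blue on gelatin, green on LN511, filled where the adjusted p was under 0.05. Nanog, Tfcp2l1, Tbx3 and Prdm14 lie between 3.02 and 4.54, Nr0b1 and Zfp42 between 0.78 and 1.76, and Gbx2 lies below 0.

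The order of the 9 levels changed with the medium. In gelatin Std it ran Nanog (mean 54.9 FPKM), Esrrb (23.9), Nr0b1 (22.2), Zfp42 (19.7), Gbx2 (17.6), Tfcp2l1 (5.34), Tbx3 (1.74), and then Nr5a2 and Prdm14, each with a library at 0. The replicates of Esrrb, Nr0b1, Zfp42 and Gbx2 overlapped with those of a neighbour in this order, so these 4 are not separated. In LN511 Std, Esrrb (50.1), Nanog (45.8) and Gbx2 (42.0) led with overlapping replicates. In gelatin 2i the order was Nanog (451), Tfcp2l1 (146), Esrrb (127), Zfp42 (51.3), Nr0b1 (43.6), Tbx3 (40.5), Prdm14 (14.2), Gbx2 (8.61) and Nr5a2. Tfcp2l1 and Esrrb overlapped, as did Nr0b1 and Tbx3. In LN511 2i the order of the means was the same, with Nanog at 582 FPKM, and Tfcp2l1 overlapped Esrrb and Tbx3 overlapped Nr0b1. Summed over the 9 genes, the level was 143 to 198 FPKM in the Std libraries and 853 to 956 in the 2i libraries. Nanog made up 37.2% and 37.2% of that sum in gelatin Std, 25.7% and 21.8% for LN511 Std, 52.3% and 49.8% for gelatin 2i and 57.5% and 64.7% for LN511 2i.

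For the coating, no member passed in either medium by limma. In Std medium 1.54% of tested genes were called higher on LN511 and 0.564% lower, and 4 of the 9 members had an unadjusted p under 0.05, as had 1629 of all genes. These were Gbx2 (log2 1.21, SE 0.25, limma adjusted p = 0.0662), Esrrb (1.06, SE 0.30, 0.154), Tfcp2l1 (0.50, SE 0.19, 0.269) and Nanog (-0.26, SE 0.09, 0.239). Both LN511 Std libraries were above both gelatin Std libraries in 4 members (Esrrb, Gbx2, Tfcp2l1 and Tbx3) and below both in 1 (Nanog). Over all tested genes these shares were 28.7% and 20.7%. For Tbx3 the nearest values were 1.844 FPKM on LN511 and 1.838 on gelatin, so its separation is slight and at a low level. Gbx2 passed without LN511 2i replicate 1 or 2 (limma adjusted p = 0.0313 and 0.0327), libraries that are not part of this comparison but enter the estimate of the spread. The 95% intervals of the other members took in 0. They were narrow for Nr0b1 (-0.19 to 0.38) and Zfp42 (-0.48 to 0.33), and wide for Tbx3 (-0.97 to 1.38) and Prdm14 (-0.97 to 1.10).

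In 2i medium 0.0195% of tested genes were called higher on LN511 and 0% lower. Of the members, Nanog had an unadjusted p under 0.05 (log2 0.37, SE 0.09, limma adjusted p = 0.230), as had 1228 genes in all. The coating difference had opposite signs in the 2 media in 8 of the 9 members, all but Prdm14, and in 45.5% of all tested genes. Among these 8, the differences of Nr0b1, Nr5a2 and Tbx3 in both media and of Zfp42 in Std were smaller than their SE. In 2i the limma confidence intervals of Esrrb (-1.16 to 0.26), Gbx2 (-0.97 to 0.21) and Tfcp2l1 (-0.82 to 0.08) took in 0. The turns of sign in all these members are therefore not settled. Nanog alone had intervals without 0 in both media (-0.47 to -0.04 in Std, 0.15 to 0.58 in 2i). Neither of its differences passed after adjustment. In 2i both LN511 libraries were above both gelatin libraries in 2 members (Nanog and Zfp42; 22.2% of all tested genes) and below both in 2 (Tfcp2l1 and Nr0b1; 20.7%). For Nr0b1 the nearest values were 42.13 FPKM on LN511 and 42.26 on gelatin, so its separation is slight. For Nanog both LN511 libraries were below both gelatin libraries in Std and above both in 2i. For Tfcp2l1 both were above in Std and below in 2i. For Esrrb and Gbx2 the 2i libraries of the coatings overlapped. The interaction was 0.62 (SE 0.13, limma adjusted p = 0.149) for Nanog, -0.87 (SE 0.27, 0.277) for Tfcp2l1 and -1.59 (SE 0.35, 0.173) for Gbx2. No member passed for the interaction, with 4 at an unadjusted p under 0.05, while 0.185% of all tested genes were called and 1251 were at an unadjusted p under 0.05. The Tbx3 difference in 2i, -0.34, became 0.49 without LN511 2i replicate 2.

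**Figure D4:**
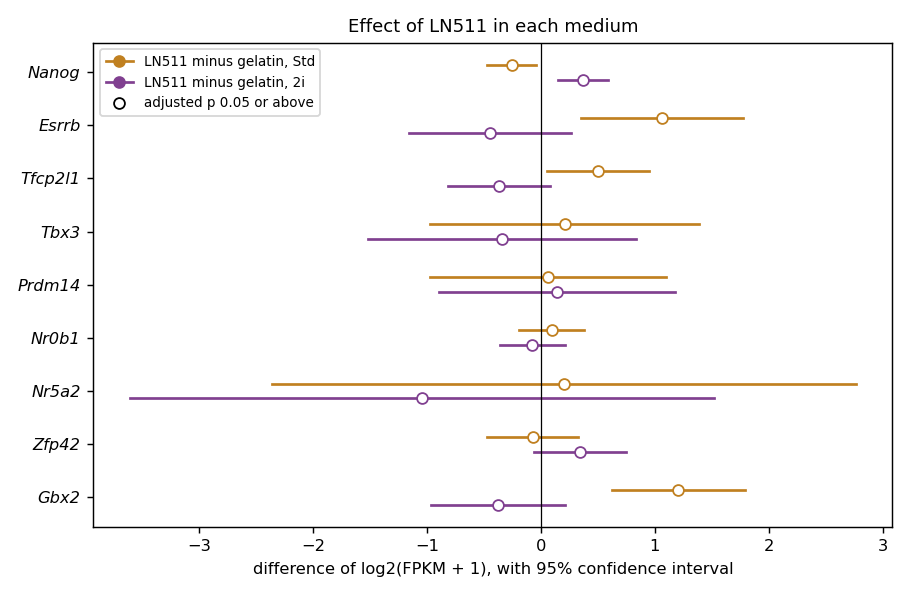
Difference of log2(FPKM + 1) between LN511 and gelatin for each factor in Std medium (orange) and in 2i (purple), with limma 95% confidence intervals; open symbols mark an adjusted p of 0.05 or above, which holds for all of them. Gbx2 and Esrrb have the largest differences in Std, 1.21 and 1.06.

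Genes around the 9 in the pathway were read from lists written from textbook knowledge, with earlier results of these data known. Each count called in a list stands beside the 8.20% higher and 7.20% lower of all tested genes on gelatin, and 8.58% and 9.95% on LN511. Some genes reached the filter of 1 FPKM in 2 libraries in 1 medium only, which favours a difference: Sp5 and Tcf7l2 in 2i, and Otx2, Fgf5, Sox3 and Fgfr2 in Std. The list counts are therefore descriptions. Of 15 other naive-state genes 10 could be tested, and 8 rose on gelatin and 7 on LN511, with none lower. Klf2, which encodes a KLF factor of the naive network, was at 13.5 and 14.8 FPKM for gelatin Std, 12.5 and 9.58 for LN511 Std, 116 and 105 for gelatin 2i and 108 and 136 for LN511 2i. Klf4, a LIF target, rose by log2 2.17 (SE 0.12) and 2.29 (SE 0.12). The others that rose on both coatings were Tdh, Fbxo15, Jam2, Tcl1 and Mybl2, while Zfp57 passed on gelatin alone, with no interaction call (limma adjusted p = 0.770). The list median was 2.33 on gelatin and 2.13 on LN511. Among 11 core and shared factors, by contrast, 1 rose and 3 fell on gelatin, and 1 rose and 4 fell on LN511. The medians of that list were -0.31 and -0.55. Pou5f1, which encodes OCT4, was at 949 to 1245 FPKM in all 8 libraries and did not pass on either coating (log2 0.11 on both, SE 0.07). Sox2 rose by 0.31 and 0.40 (SE 0.08). Utf1 (log2 -2.08 and -2.24), Tdgf1 (log2 -0.85 and -0.82) and Lin28a (log2 -0.80 and -1.57) fell on both coatings.

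Upstream of the factors, none of 7 tested genes of the LIF and STAT3 pathway passed on gelatin by limma. An unadjusted p under 0.05 was found for 1 of the 7, as for 3081 of all 10278 tested genes. Stat3 was nearest to a call, at 14.3 and 17.3 FPKM in Std and 24.1 and 23.2 in 2i (limma adjusted p = 0.0509). On LN511 Socs3 rose (log2 0.82) and Pim1 and Pim3 fell (log2 -1.80 and -1.56). Of 8 tested Wnt and TCF pathway genes, 3 rose and 1 fell on gelatin, and 5 rose and 1 fell on LN511. Sp5, a beta-catenin target, went from 0.22 and 0 FPKM to 10.7 and 7.54 on gelatin and from 0.74 and 0.73 to 8.88 and 6.72 on LN511. Gsk3b rose on both. Tcf7l2 and Axin2 passed on LN511 alone, with no interaction call (limma adjusted p = 0.553 and 0.869). Axin2 had a log2 difference of 1.35 on gelatin (limma adjusted p = 0.0582) and 1.63 on LN511. Cdx1 rose (log2 4.86 and 3.84) and Lef1 fell (log2 -2.34 and -1.36) on both coatings. Tcf7l1, the repressor named above, was at 20.6 and 16.8 FPKM for gelatin Std, 12.2 and 12.4 for LN511 Std and 21.0 and 17.6 for gelatin 2i. It was listed at 0 and 22.3 for LN511 2i and was therefore not tested.

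Of 14 tested FGF and ERK pathway genes, 4 fell on each coating, while 1 rose on gelatin and 2 on LN511. Dusp6 (log2 -4.28 and -4.55) and Spry4 (log2 -2.34 and -3.40), feedback inhibitors that ERK induces, fell on both coatings, as did Spred1 (log2 -1.31 and -1.57). Etv5 fell on gelatin (log2 -0.81) and Phlda1 on LN511 (log2 -1.45). Of 9 tested naive exit and primed factors, all 9 fell on gelatin, and 6 fell and 1 rose on LN511. Pou3f1 (log2 -4.69 and -4.14), Otx2 (log2 -2.63 and -2.82) and Dnmt3a (log2 -3.78 and -3.85) fell on both. Dnmt3a encodes a de novo DNA methyltransferase. The gene that rose on LN511 was Zic2, at 8.95 and 6.42 FPKM for LN511 Std and 13.2 and 15.2 for LN511 2i. None of 6 nuclear receptor coregulators, partners of ESRRB and NR5A2, was called by limma on either coating, and 0 of 6 had an unadjusted p under 0.05. Over all 10278 tested genes, 3081 had one on gelatin and 3336 on LN511. With 6 genes, the count of 0 is not read as a result. Among 7 genes tied to PRDM14, Uhrf1 (log2 0.93 and 1.09) and Suz12 (0.53 and 0.85) rose and Dnmt3l (-1.88 and -1.21) fell on both coatings. Its partner Cbfa2t2, needed for PRDM14 function, was at 14.9 to 21.9 FPKM in the 8 libraries. For the coating in Std medium, Pim3 was higher on LN511 (log2 1.10), and Socs3 (log2 -1.37), Zic2 (log2 -1.66) and Tdgf1 were lower. No gene of these lists was called by limma for the coating in 2i or for the interaction, where 2 and 19 genes were called in all.

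**Figure D5:**
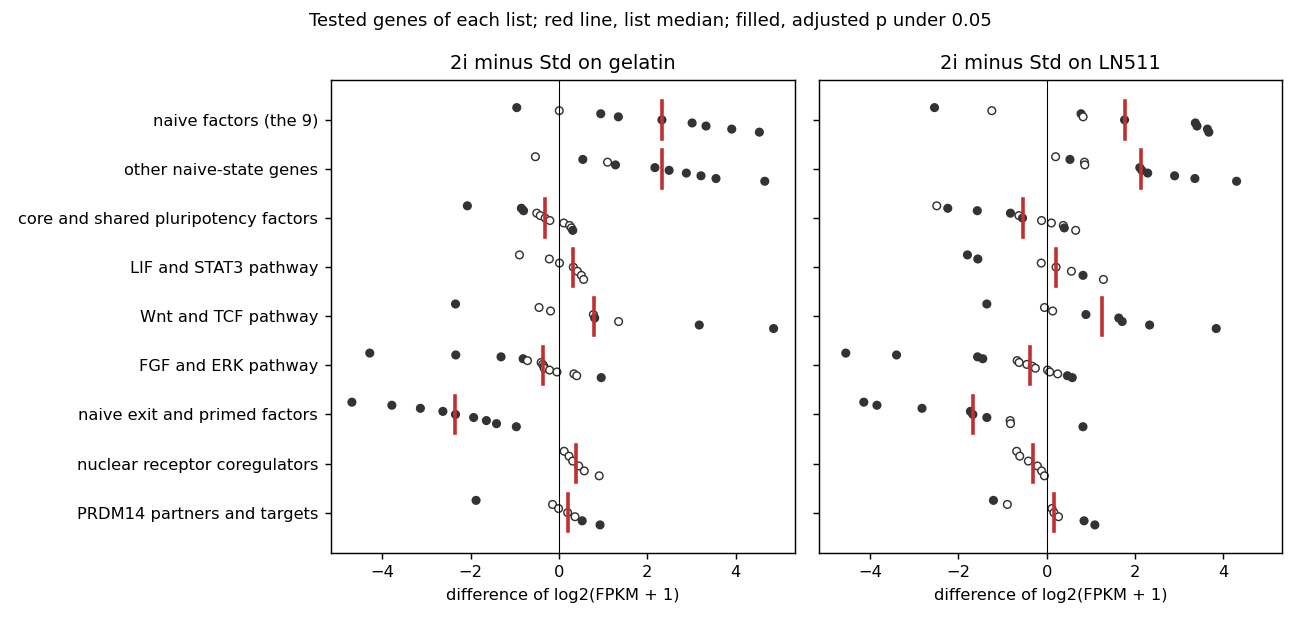
Difference of log2(FPKM + 1) between 2i and Std for each tested gene (points) of 9 lists, on gelatin (left) and LN511 (right); red lines are list medians and filled points have a limma adjusted p under 0.05. The 9 naive factors and the other naive-state genes have medians of 1.76 to 2.33, and the naive exit and primed factors -2.34 and -1.67.

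Likeness of pattern was measured as the root mean square difference between log2(FPKM + 1) values over the 8 libraries, each gene centred on its own mean. For scale, a flat gene would lie 1.67 from Nanog and 1.00 from Gbx2. Closest to Nanog was Klf2 (0.17), followed by Rab11fip5 and Elf3 (both 0.28). Closest to Tfcp2l1 were Cdx1 (0.27), Jam2 (0.31) and Aqp3 (0.38), and closest to Tbx3 was Tfcp2l1 (0.40). Elf3 (0.31), Apom and Rab11fip5 were closest to Prdm14. Zfp42 was nearest to Chpt1 (0.10), Lap3 and Idh1, and Nr0b1 to Ypel5 (0.06), Slc25a39 and Gna13. Esrrb was nearest to Laptm5 (0.29), Capn1 and Tmem39a. The genes closest to Gbx2 were F2rl1 (0.16), Gng3 (0.18) and Flnc (0.20). F2rl1, a protease-activated receptor gene, had group means of 30.1 FPKM for gelatin Std, 63.8 for LN511 Std, 16.3 for gelatin 2i and 13.4 for LN511 2i. The filamin gene Flnc was at 2.50, 6.26, 0.43 and 0.29 in the same order. For Nr5a2 the nearest genes (0.70 to 0.74) were little closer than a flat gene (1.08). Among the 9 themselves, the nearest pairs were Tfcp2l1 with Tbx3 (0.40), Nr0b1 with Zfp42 (0.41) and Nanog with Prdm14 (0.42), and the farthest was Tfcp2l1 with Gbx2 (2.96).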

How the data were processed

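The authors deposited FPKM values per gene and per transcript for 8 RNA-seq libraries, and build mm10, Cufflinks 2.1.1 and TopHat2 2.1.1 are named in the submitters' processing notes. Settings, annotation and strandedness: not given in the sources used here. The gene value here is the sum of a gene's RefSeq transcript rows, named through RefSeq's table for GRCm38.p6 (31786 of 32688 rows matched), since the deposited gene table lists at 0 47.3% of the values that are 1 FPKM or more in these sums. Reads given to 21844 rows of assembled transcripts are left out. Genes with 1 FPKM in 2 libraries were kept (11244). Those with a doubtful 0 were set aside (836 with 1 replicate at 0 and the other at 5 or more, 130 with a whole group at 0 and another's mean at 5 or more), leaving 10278. limma 3.58.1 (R 4.3.3, eBayes with trend) was fitted to log2(FPKM + 1) with 4 group means, 4 residual degrees of freedom and Benjamini-Hochberg adjustment within each contrast, called under 0.05. It was tested on simulated data. The depth is known only from low FPKM steps, so no counting interval is given. Coordinates and sequences come from RefSeq and, for the Tbx3 exon, GENCODE M21. The members, gene lists and rules were chosen with earlier results of these data known. Named genes are the 9, reference genes (Pou5f1, Sox2, Klf2, Klf4, Tcf7l1, Otx2, Pou3f1, Dusp6), up to 3 called genes by adjusted p per list and contrast, and the 3 closest in pattern to each member among genes whose highest group mean is 5 or more. Cbfa2t2, Mybl2, Tcl1, Stat3 and Zfp57 were named outside this rule, after their values were seen. A planned comparison of protein sequences was not made. Alternatives were the pseudocount, the filter, doubtful zeros, quantile normalization, the gene table, fewer libraries and a replicate block.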

Additional observations from a re-analysis of the deposited data

How the results depend on the processing

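Nanog, Tfcp2l1, Zfp42 and Nr0b1 kept their calls in 2i on both coatings under each alternative in which they were tested. Esrrb kept its call on gelatin. Prdm14 also kept its calls, but it passed the filter on low values only through its 2i libraries. Its calls are therefore descriptions and are not counted as support. In the deposited gene table, of the 9 only Gbx2 and Nr5a2 could be tested. That table gave 0 members called on gelatin and 1 on LN511 in 2i and 1 for the coating in Std (Gbx2), with 295, 326, 135, 54 and 65 genes called for 2i on gelatin, 2i on LN511, the coating in Std, the coating in 2i and the interaction. Fitting only the libraries compared called 998, 962, 6 and 0 genes in the first 4. For the coating in 2i, against 2 genes, a pseudocount of 0.1 called 0, no filter 15 and doubtful zeros kept 42. For the interaction, against 19, no filter called 31 and doubtful zeros kept 53. The replicate block called 80 genes for the coating in Std (against 216), 0 in 2i and 1 for the interaction, and of the members' calls it ended that of Gbx2 on gelatin (adjusted p = 0.0657). No pairing by replicate number was seen, since replicate differences correlated at -0.02 to 0.02 between groups. This cannot show whether samples with the same number were prepared together. Leaving out 1 library (a lone sample is then assumed to vary like the other groups) gave 648 to 1516 genes on gelatin (811 and 767 without gelatin Std replicate 1 or 2, 648 and 688 without gelatin 2i replicate 1 or 2), 861 to 1625 on LN511 (863 and 861 without LN511 Std replicate 1 or 2, 1211 without LN511 2i replicate 2), 9 to 199 for the coating in Std, 0 to 12 in 2i and 0 to 11 for the interaction. The coating count in Std was 39 and 41 without gelatin Std replicate 1 or 2, 9 and 18 without LN511 Std replicate 1 or 2, and 75 and 74 without gelatin 2i replicate 1 or 2. Members called were 7 to 8 on gelatin, 7 on LN511 and 0 to 1 for the coating in Std. Signs that turned were all of differences that had not passed. For Prdm14 these were the coating in Std with quantile normalization (-0.0351) and with 1 library left out (-0.51 to 0.64), the coating in 2i (-0.14 to 0.42) and the interaction (-0.62 with a pseudocount of 0.1, -0.50 to 0.65 with 1 library left out). For Nr5a2 they were 2i on gelatin (-1.04 with the gene table, -1.04 to 1.05 with 1 left out) and the coating in Std (-1.04 to 1.45). For Zfp42 it was the coating in Std (-0.23 to 0.0863), and for Tbx3 the coating in 2i (-1.17 to 0.49) and the interaction (-1.37 to 0.28), turned without LN511 2i replicate 2. The cause of these changes was not tested. Prdm14 was at or below 1.21 FPKM in Std, and the Tbx3 replicates lay furthest apart in LN511 2i (56.7 and 17.4 FPKM). Why replicates of Nr5a2 were at 0 was not tested.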

Other observations

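Genes beside the 9 on the chromosomes were looked at after the results above were known. Within 100000 bases of a member's ends, 6 other genes could be tested. None was called by limma on gelatin, where 8.20% of all tested genes were called higher and 7.20% lower. On LN511 1 was called, where 8.58% of all tested genes were called higher and 9.95% lower. Slc2a3, which encodes the glucose transporter GLUT3, lies 13176 bases from Nanog. It was at 133 and 92.8 FPKM for gelatin Std, 112 and 322 for LN511 Std, 362 and 257 for gelatin 2i and 342 and 173 for LN511 2i. Slc2a3 was not called (limma adjusted p = 0.122 on gelatin and 0.700 on LN511). Its libraries overlapped between the media on LN511 but not on gelatin. Clasp1, beside Tfcp2l1, was at 6.44 to 13.1 FPKM in the 8 libraries. The gene called on LN511 was Tbx3os2, which passed the filter on low values only through its LN511 2i libraries. It is a non-coding gene 364 bases from Tbx3 and was listed at 0 in both LN511 Std libraries and at 1.37 and 1.05 FPKM for LN511 2i (limma adjusted p = 0.0373). On gelatin it was at 0.18 and 0 in Std and 0.32 and 0.92 in 2i (limma adjusted p = 0.254). Reads of Tbx3 and of transcripts beside it may not be told apart.

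The OCT-SOX layout of the Nanog window was also present in windows of 4 other tested genes, Exoc1, Pipox, Nrarp and Idua. None was called on gelatin, where 8.20% of all tested genes were called higher and 7.20% lower. On LN511 these shares were 8.58% and 9.95%. With 4 genes, the count is not read as a result. Exoc1, an exocyst subunit gene, had group means of 10.3, 12.3, 11.1 and 9.28 FPKM for gelatin Std, LN511 Std, gelatin 2i and LN511 2i and was not called for 2i. Pipox, a peroxisomal sarcosine oxidase gene, was at 15.5 FPKM for LN511 Std and 9.85 for LN511 2i and was called lower there (log2 -0.61, limma adjusted p = 0.0436). Nrarp, a regulator of Notch signalling, was at 2.42, 1.95, 0.94 and 0.71 in the order of Exoc1 and was not called. Idua, a lysosomal enzyme gene, was at 0.47 to 1.48.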
